A study of Rattus norvegicus with 16 samples.

Results

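The let-7 family was followed in the hearts of newborn rats through 10 microRNA entries: rno-let-7a, rno-let-7b, rno-let-7c, rno-let-7d, rno-let-7e, rno-let-7f, rno-let-7i, rno-miR-98 and the passenger arms rno-let-7b* and rno-let-7d*, written below without the species prefix. They were taken by name from the 677 rat miRNAs on the array, and the passenger arms were included because they were detected, on 16 and 14 of the 16 arrays, while the family's other 7 passenger arms on the array were detected on at most 1. The first 8 are guide strands, the arm of the precursor that is loaded into Argonaute, and a passenger arm (written with a star) is the opposite arm, most of which is degraded.

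Total RNA from 16 pups aged 2 days carried a Cy3 label and was read on 16 Agilent rat miRNA arrays, each with the RNA of a single animal. The groups were female pups of HHR, a rat strain whose hearts the labels call hypertrophic, male HHR pups, female pups of NHR, the strain whose hearts they call normal, and male NHR pups, with 4 animals in each. The tissue is uncertain, since the labels speak both of whole hearts and of ventricles freed of the atria, and they give heart size as a property of the strain, not as a weight of each animal. No agent, transgene or induced mutation is named for any group, and litters are not given.

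Members of the let-7 family are cut from hairpin precursors and guide Argonaute to mRNAs that match the seed, the stretch near the 5′ end of the small RNA. The RNA-binding proteins LIN28A and LIN28B hold back the maturation of many let-7 precursors in early embryos, and mature let-7 accumulates as cells leave that state and differentiate. Known targets include Hmga2, a growth-promoting chromatin protein, Lin28 itself and, in human cells, RAS and MYC mRNAs, and in human stem cell derived cardiomyocytes let-7 has been reported to promote maturation.

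The mature sequences are shown because their differences decide what an array can tell apart. They are RefSeq's, on the rat build GRCr8, and all 10 names matched. Capitals mark the seed, bases 2 to 8.
let-7a: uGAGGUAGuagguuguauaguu
let-7b: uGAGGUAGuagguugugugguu
let-7c: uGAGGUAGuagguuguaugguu
let-7d: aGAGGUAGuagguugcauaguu
let-7e: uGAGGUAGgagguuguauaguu
let-7f: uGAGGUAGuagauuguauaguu
let-7i: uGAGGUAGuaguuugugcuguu
miR-98: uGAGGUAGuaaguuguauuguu
let-7b*: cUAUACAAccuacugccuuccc
let-7d*: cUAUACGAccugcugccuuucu

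The 8 guide strands carried 1 seed, and the passenger arms had a seed each of their own. Counted from 1 at the 5′ end, with the let-7a base first, let-7c differed from let-7a by A19G, let-7e by U9G and let-7f by G12A, 1 base each. let-7b differed by A17G and A19G, let-7d by U1A and U16C, and miR-98 by G11A and A19U. let-7i was the most distant from let-7a, with G12U, A17G, U18C and A19U. The files used here hold no probe sequences, and binding of a member to a neighbour's probe was not measured.

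The mature sequences lie in clusters on GRCr8. let-7d is at chr17:16322273-16322294 on the plus strand, with let-7d* at chr17:16322327-16322348 on the other arm of the same hairpin. A let-7a copy at chr17:16320145-16320166 and a let-7f copy at chr17:16320508-16320529 precede it. The second let-7a copy is at chr8:50805219-50805240, 6829 bases from the miR-100 hairpin. let-7b is at chr7:118684044-118684065, with let-7b* at chr7:118684098-118684119 and a let-7c copy at chr7:118683636-118683657. The second let-7c copy, at chr11:29688127-29688148, follows the miR-99a hairpin by 640 bases. let-7e is at chr1:67350243-67350264, within the Spaca6 gene, 96 bases from the miR-99b hairpin and 354 bases from that of miR-125a. The second let-7f copy at chrX:24460052-24460073 and miR-98 at chrX:24460663-24460684 both lie within Huwe1, a gene for a ubiquitin ligase. let-7i stands alone on the minus strand at chr7:60527935-60527956. let-7a, let-7c and let-7f each have 2 copies with 1 mature sequence, so the array gives their sum.

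On the 16 arrays, 200 to 239 miRNAs were detected per array, and the arrays differed in brightness. The 75th percentile of the unscaled signal, over 258 probes well above background on all arrays, averaged 469.6 ± 37.3 on HHR arrays and 378.4 ± 87.3 on NHR arrays (SD, n = 8 each). All arrays were therefore scaled to an equal 75th percentile, and a level is the scaled signal or its log2. Of the cardiac muscle miRNAs listed, 6 of 7 were detected on all arrays, miR-208 was on none, and the listed epithelial, neural and liver miRNAs were on none. Summed signals of the endothelial miRNAs ran from 964 to 1077 on HHR arrays and from 1157 to 1272 on NHR arrays. Those of smooth muscle ran from 1265 to 1336 on HHR arrays and from 1392 to 1477 on NHR arrays. Those of leukocytes, of which 3 of 4 on the array were detected and miR-142-5p was not, ran from 92.1 to 106.9 on HHR arrays and from 110 to 148 on NHR arrays. The cardiac sums (11516 to 12963 on HHR arrays, 12276 to 13907 on NHR arrays), erythroid sums (199 to 307 on HHR arrays, 209 to 332 on NHR arrays) and fibroblast sums (1243 to 1657 on HHR arrays, 1175 to 1449 on NHR arrays) overlapped, and skeletal muscle miR-206 read at most 6.56 on HHR arrays and 10.65 on NHR arrays. At this scaling, the endothelial, smooth muscle and leukocyte sums did not overlap between the strains. The sums were not computed under the other scalings described below, so their direction there is not known. The part of these lists in the differences below was not tested. In heart tissue, fewer cells of a type and less of a miRNA per cell cannot be told apart.

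The let-7 guides were among the brightest miRNAs of these hearts in both strains. let-7a ranked 3 or 4 of 677 on every array, and let-7f ranked from 5 to 6 on HHR arrays and from 5 to 7 on NHR arrays. let-7d and let-7c ranked between 7 and 11, let-7i at 9 or 10, and let-7b between 12 and 16. let-7e was dimmer, between rank 20 and 29, and miR-98 between 66 and 72. The 10 members together gave 17.9% ± 0.292 of the summed scaled signal on HHR arrays and 17.7% ± 0.352 on NHR arrays (SD, n = 8 each), with overlapping ranges. Brightness mixes abundance with how well a probe binds: the 2 probes of a guide differed from 1.61-fold for miR-98 to 7.79-fold for let-7f. The ranks therefore describe signal and do not order the members by number of molecules.

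Between strains, let-7d, let-7i, let-7a, let-7b* and let-7d* were lower in HHR hearts and no member was higher at the scaling used, while under several other scalings, given below, the guides turned to higher in HHR. The 3 guides were lower in HHR by 1.08-fold to 1.09-fold. The passenger arms read at far dimmer signals, and let-7d* had no probe well above background on any HHR array, so its size of change is not known. Of the 10 members, 5 passed the test as lower, while 45.5% of all 233 tested miRNAs did, and 0 passed as higher, while 9.01% of all did. The share of members called lower thus lies near the background. The test was limma's moderated fit on log2 levels with Benjamini-Hochberg adjustment over the 233 miRNAs and a threshold of 0.05. The median difference, HHR minus NHR, was -0.09 on the log2 scale over the 10 members and -0.11 over all tested miRNAs.

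let-7d, the guide from the chromosome 17 cluster, had the smallest adjusted p of the 10 members. Its scaled signal was 1405, 1377, 1372 and 1451 in HHR females and 1430, 1384, 1428 and 1411 in HHR males, against 1563, 1546, 1501 and 1585 in NHR females and 1569, 1479, 1554 and 1515 in NHR males. Every HHR array lay below every NHR array. The difference was -0.13 ± 0.022 on the log2 scale (SE), a level 1.09-fold lower in HHR, with limma's adjusted p of 3.28e-04.

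let-7i, the solitary guide from chromosome 7, was lower in HHR by as much. Its scaled signal was 1298, 1335, 1284 and 1423 in HHR females and 1310, 1373, 1377 and 1355 in HHR males, against 1470, 1438, 1461 and 1527 in NHR females and 1523, 1436, 1466 and 1429 in NHR males. Here too the strains did not overlap, the highest HHR female reading 1423 and the lowest NHR male 1429. The difference was -0.13 ± 0.026 on the log2 scale (SE), 1.09-fold lower in HHR, with limma's adjusted p of 0.00132. let-7d and let-7i were the 2 members of 10 whose HHR values all lay below the NHR values, which held for 11.2% of all tested miRNAs, and 0 members had HHR values all above, which held for 3% of them.

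let-7a, the brightest member, was lower in HHR with a small overlap. It read 2315, 2424, 2232 and 2396 in HHR females and 2300, 2304, 2496 and 2337 in HHR males, against 2632, 2626, 2438 and 2616 in NHR females and 2573, 2506, 2549 and 2456 in NHR males. One HHR male lay above 2 NHR arrays and the other HHR arrays lay below all of them. The difference was -0.12 ± 0.027 on the log2 scale (SE), 1.08-fold lower in HHR, with limma's adjusted p of 0.00295.

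The other guides did not pass the threshold, and their strains overlapped. let-7f had a lowest, median and highest scaled signal of 1533, 1662 and 1760 on HHR arrays and of 1622, 1734 and 1803 on NHR arrays. Its difference was -0.06 on the log2 scale (95% interval -0.13 to 0.0016, limma's adjusted p = 0.0893). miR-98, its neighbour within Huwe1, had 96.8, 104.7 and 110.1 on HHR arrays and 105.3, 108.8 and 115.4 on NHR arrays. Its difference was -0.06 (95% interval -0.12 to -0.0004, limma's adjusted p = 0.0799).

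let-7b and let-7c, which lie side by side on chromosome 7, gave the smallest differences. let-7b had a lowest, median and highest scaled signal of 965, 1031 and 1062 on HHR arrays and of 969, 1064 and 1107 on NHR arrays, a log2 difference of -0.035 (95% interval -0.098 to 0.028, limma's adjusted p = 0.317). let-7c had 1369, 1444 and 1544 on HHR arrays and 1372, 1511 and 1533 on NHR arrays, a log2 difference of -0.034 (95% interval -0.10 to 0.031, limma's adjusted p = 0.340). let-7e, from the miR-99b and miR-125a cluster, had 637, 712 and 756 on HHR arrays and 666, 728 and 764 on NHR arrays, a log2 difference of -0.041 (95% interval -0.13 to 0.049, limma's adjusted p = 0.408). The lower ends of these 3 intervals bound the loss in HHR that this scaling allows.

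**Figure D1:**
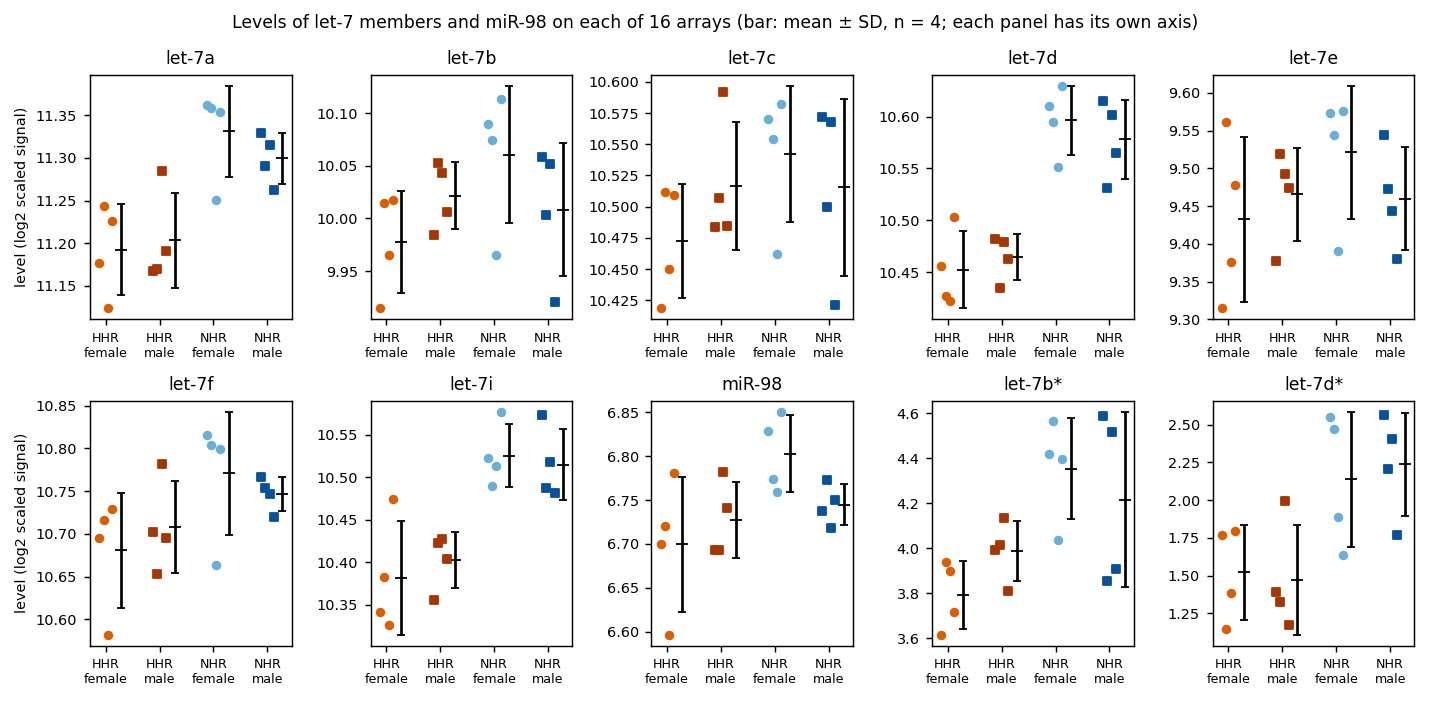
Log2 scaled signal of each of the 10 members on each of the 16 arrays, grouped by strain and sex (points are arrays, bars are mean ± SD, n = 4, and each panel has its own axis). All HHR points lie below all NHR points for let-7d and let-7i, while the strains overlap for the other members; with a percentile over all probes the 8 guides are higher in HHR instead.

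The passenger arms were dim. let-7b* read 12.27, 15.34, 14.93 and 13.15 in HHR females and 15.94, 16.18, 17.59 and 14.05 in HHR males, against 21.39, 23.67, 16.42 and 21.1 in NHR females and 24.06, 14.48, 22.9 and 15 in NHR males. The NHR arrays fell apart into 5 above every HHR array and 3 inside the HHR range. The difference was -0.39 ± 0.12 on the log2 scale (SE), 1.31-fold lower in HHR, with limma's adjusted p of 0.0130. Those 3 NHR arrays are also the brighter ones, with an unscaled 75th percentile of 443 to 503, against 295 to 327 on the other 5 NHR arrays. With array brightness as a covariate the let-7b* difference was -0.09 on the log2 scale, with limma's adjusted p of 0.306.

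let-7d* sat close to the floor of 1.88 to which lower signals were raised. It read 3.411, 2.212, 2.608 and 3.469 in HHR females and 2.621, 2.501, 3.989 and 2.26 in HHR males, against 5.863, 5.546, 3.707 and 3.106 in NHR females and 5.911, 4.615, 5.292 and 3.411 in NHR males. The scanner software called it detected on 7 HHR and 7 NHR arrays, but none of its 4 probes was well above background on any HHR array, and 1 was on 1 NHR array. The fitted difference was -0.69 ± 0.17 on the log2 scale (SE, limma's adjusted p = 0.00526), from mean log2 levels of 1.497 in HHR and 2.19 in NHR. Since the probes were near background in both strains, no fold is given. A floor 4 times higher lay above all its values, so that setting could not show a difference. The 3 bright NHR arrays read from 3.41 to 4.61 and the other NHR arrays from 3.11 to 5.91.

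The NHR levels of several guides moved with array brightness as well. On the 3 bright NHR arrays let-7d read from 1479 to 1515, and on the other 5 from 1546 to 1585, with an HHR range of 1372 to 1451. let-7i read from 1429 to 1461 on the bright NHR arrays and from 1438 to 1527 on the others, with an HHR range of 1284 to 1423. let-7a read from 2438 to 2506 on the bright NHR arrays and from 2549 to 2632 on the others, with an HHR range of 2232 to 2496. let-7c, which was not called, read from 1372 to 1448 on the bright NHR arrays and from 1504 to 1533 on the others, with an HHR range of 1369 to 1544. With array brightness as a covariate, let-7d and let-7i were the members called, while 74 of all 233 tested miRNAs were. The split is by brightness, not by a label, and carries no test of its own.

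The 2 probes of a guide gave nearly the same strain difference. They were -0.118 and -0.116 on the log2 scale for let-7a, and the widest gap between 2 probes of a guide was 0.036, for let-7d, with -0.14 and -0.10. The 4 let-7b* probes ran from -0.45 to -0.33, and the 4 let-7d* probes from -0.58 to -0.0049. Repeat spots of a guide probe had a median coefficient of variation from 3.18% for let-7a to 5.30% for let-7b, against 14.5% for let-7b* and 20.4% for let-7d*. The errors printed beside the differences come from the spread between animals, not from these spots.

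**Figure D2:**
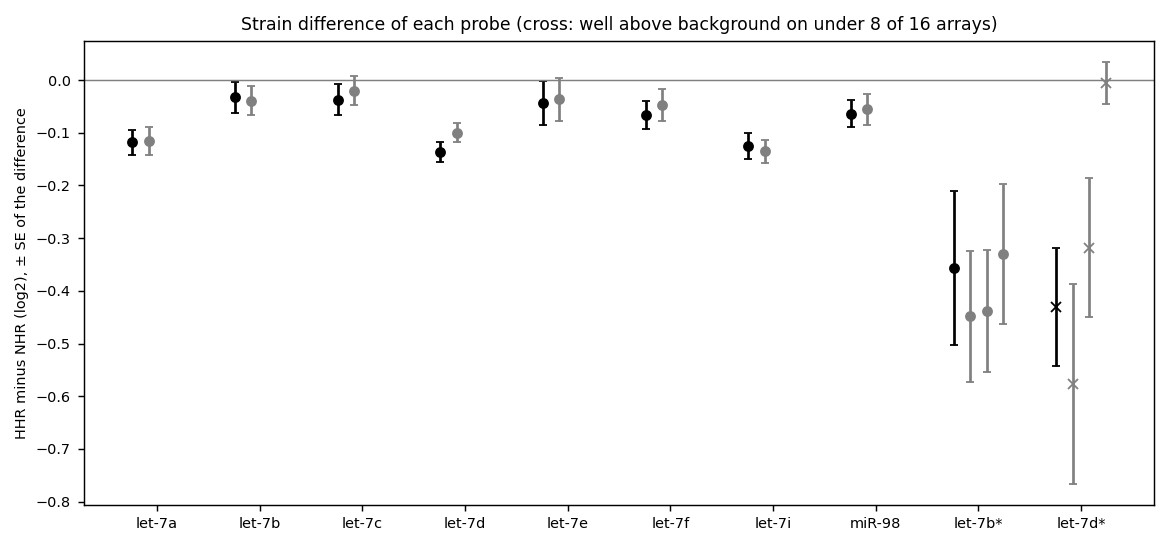
Strain difference, HHR minus NHR on the log2 scale, of every probe of the 10 members (bars are the SE of the difference, n = 8 arrays per strain; black is the brightest probe of a member and a cross marks a probe well above background on under 8 of the 16 arrays). Probes of a guide lie within 0.036 of each other, and those of let-7d* are spread from -0.58 to -0.0049.

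The direction of the guide differences depended on how arrays were scaled. With the 75th percentile taken over all probes, all 8 guides passed as higher in HHR, from 0.15 for let-7d to 0.25 for let-7b and let-7c on the log2 scale. Of all 233 tested miRNAs, 134 passed as higher at that scaling and 21 as lower. That percentile lay between 7.53 and 8.97 unscaled units on HHR arrays and between 6.29 and 11.3 on NHR arrays, while the lowest probe flagged well above background averaged 12.4 scaled units on HHR arrays. With median centring, let-7b and let-7c passed as higher, with log2 differences of 0.14 each, and let-7d* as lower. Of all 233 tested miRNAs, 59 passed as higher there and 28 as lower. With no scaling, with scaling on 2 spike-in controls and in the authors' deposited table, the 8 guides were higher in HHR and 0 of 10 members passed. Over all 233 tested miRNAs, 48, 29 and 15 passed in those settings, in that order. With quantile normalization only let-7d passed among the members, at -0.054 on the log2 scale, while 38 of all 233 tested miRNAs passed as lower and 57 as higher. The median over all tested miRNAs moved with the guides. It went from -0.11 at the scaling used to 0.17 with the percentile over all probes, 0.064 with median centring and 0.23 with no scaling. Set against that median at the scaling used, let-7a, let-7d and let-7i lay 0.011, 0.023 and 0.022 below it, and let-7b and let-7c 0.072 above it. let-7b* and let-7d* were below 0 under each of these scalings, and below the median at the scaling used, let-7b* by 0.29. let-7b* passed under none of the other scalings: the percentile over all probes, quantile normalization, median centring, no scaling and spike-in scaling. It also did not pass with the total gene signal or in the authors' table. The size for let-7d* is not known, since its probes were near background.

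**Figure D3:**
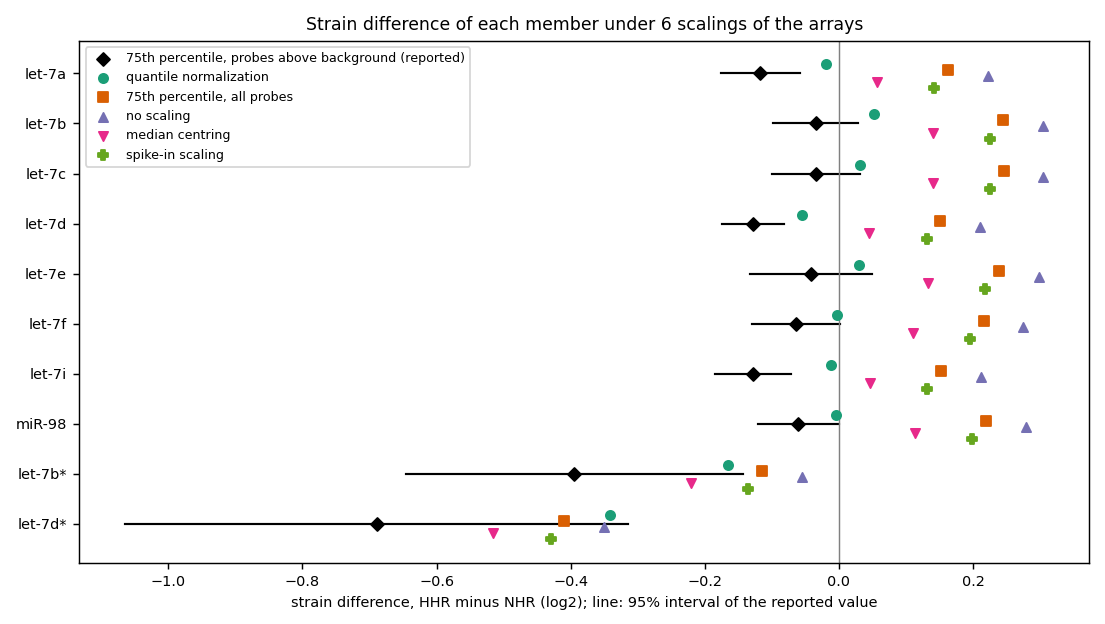
Strain difference of each member, HHR minus NHR on the log2 scale, under 6 scalings of the arrays (the black line is the 95% interval of the reported value). The 8 guides lie below 0 at the reported scaling and above 0 under 4 of the other scalings, while let-7b* and let-7d* lie below 0 under all 6.

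A ratio between members of 1 array does not carry the scaling factor. Relative to the mean log2 level of the 8 guides on the same array, let-7d averaged 0.53 ± 0.039 in HHR and 0.59 ± 0.026 in NHR, let-7i 0.47 ± 0.025 in HHR and 0.52 ± 0.035 in NHR, and let-7a 1.27 ± 0.023 in HHR and 1.31 ± 0.013 in NHR (SD over 8 arrays each). let-7b averaged 0.075 ± 0.029 in HHR and 0.033 ± 0.024 in NHR, and let-7c 0.57 ± 0.023 in HHR and 0.53 ± 0.025 in NHR. let-7e averaged -0.48 ± 0.057 in HHR and -0.51 ± 0.038 in NHR. let-7d, let-7i and let-7a thus had slightly lower mean ratios in HHR, and let-7b, let-7c and let-7e slightly higher ones. The mean ratios of let-7f and miR-98 were higher in HHR by 0.012 and 0.016. The signs were the same on both slides, each of which held 2 arrays of every group. The let-7d shift was -0.035 on slide 1 and -0.070 on slide 2, and the let-7c shift was 0.034 on slide 1 and 0.050 on slide 2. The strains overlapped for all 8 guides. With 5 other choices of probe summary, background or value table, the shifts of let-7b, let-7c, let-7d and let-7i changed by less than their SD. The let-7a and miR-98 shifts did so in 4 of the 5. For miR-98 the exception was the authors' table, where its shift was below 0, against 0.016 at the scaling used. No test is given, since the members were chosen with results of these data known, and a ratio shows unequal change without saying which member changed.

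**Figure D4:**
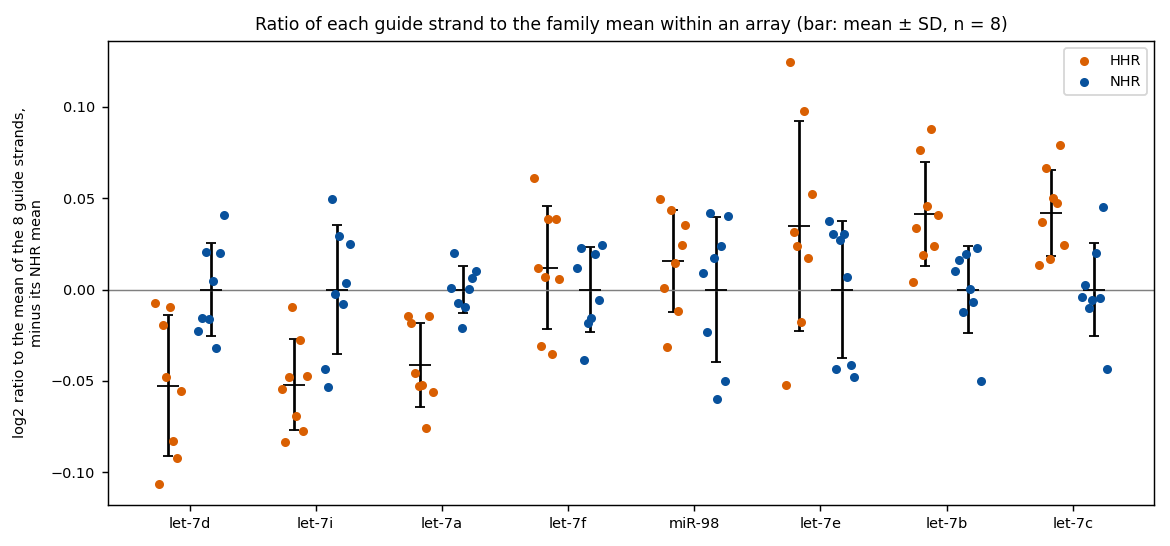
Log2 ratio of each guide to the mean of the 8 guides on the same array, less the NHR mean of that ratio, for 8 HHR and 8 NHR arrays (bars are mean ± SD). HHR averages lie 0.053 below NHR for let-7d, 0.052 below for let-7i and 0.041 below for let-7a. They lie about 0.04 above for let-7b and let-7c and 0.035 above for let-7e, with overlapping points throughout.

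Ratios of guide pairs restate the member differences given above. The shift of a pair is the strain difference of one member less that of the other, so it is no separate evidence. let-7a over let-7c, which differ by A19G alone, averaged 0.70 ± 0.031 on the log2 scale in HHR and 0.79 ± 0.029 in NHR (SD, n = 8 arrays each here and below), a shift of -0.083. let-7a over let-7f, which differ by G12A alone, averaged 0.50 ± 0.025 in HHR and 0.56 ± 0.016 in NHR, a shift of -0.053. let-7b over let-7c averaged -0.49 ± 0.027 in HHR and -0.49 ± 0.017 in NHR. Of the 28 pairs of guides, 0 had ratios that did not overlap between the strains. How often this holds for pairs among all tested miRNAs was not computed, so the count is not a trait of the family.

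Guides also varied together from animal to animal, the pairs 1 base apart among the closest. For each pair, the correlation of deviations from the group means over the 16 arrays was computed as a description, and the points share arrays, scaling and depth of signal. It ran from 0.732 to 0.930 over the 4 pairs that differ by 1 base, from 0.419 to 0.777 over the 7 pairs that differ by 2, and from 0.431 to 0.642 over the 6 pairs that differ by 4. The 9 pairs that differ by 3 bases ran from 0.275 for let-7d with let-7e to 0.878 for let-7b with let-7e. The pair that differs by 5 bases, let-7e with let-7i, was at 0.615, and the pair that differs by 6, let-7d with let-7i, at 0.613, so the values did not fall steadily with distance. let-7f and miR-98, neighbours within Huwe1 that differ by 3 bases, correlated at 0.782, although let-7f has a second copy on chromosome 17.

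Within each sex, let-7d and let-7i were again lower in HHR at the scaling used. With the percentile over all probes, 0 members passed as lower in either sex, and the members that passed were higher. In females, 0 members passed as higher in HHR, while 6.44% of all tested miRNAs did, and 5 passed as lower, while 38.6% did: let-7d (-0.14 on the log2 scale, limma's adjusted p = 0.00258), let-7i (-0.14, adjusted p = 0.00947), let-7a (-0.14, adjusted p = 0.0134), let-7b* (-0.56, adjusted p = 0.0163) and miR-98 (-0.10, adjusted p = 0.0468). In males, 0 members passed as higher, while 3.86% of all did, and 3 passed as lower, while 16.7% did: let-7d (-0.11, limma's adjusted p = 0.0169), let-7i (-0.11, adjusted p = 0.0467) and let-7d* (adjusted p = 0.0424), the last again with no probe well above background on any HHR array. The male count was 0 without HHR male 2 and 0 without NHR male 3. Whether the strain difference itself differed between the sexes was tested as an interaction, and 0 of 10 members passed, while 0% of all tested miRNAs did. At an unadjusted p under 0.05 limma's interaction term gave 0 members and 9 of the 233 miRNAs.

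Between males and females, averaged over the strains, 0 of 10 members passed limma's test, while 0% of all tested miRNAs did. At an unadjusted p under 0.05 there were 0 members and 23 of the 233 miRNAs. The male minus female differences of the members ran from -0.015 to 0.029 on the log2 scale. miR-98, from the X chromosome, had a difference of -0.015. let-7f, with a copy on the X chromosome and another on chromosome 17, had 0.0014.

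The miRNAs that share a cluster with let-7 copies were read beside them, at the scaling used only. Whether their direction held under the other scalings was not examined. miR-99a, miR-99b and miR-100 belong to one family, miR-125a and miR-125b to another, and both families sit with let-7 copies in clusters kept across vertebrates. Of the 10 entries listed, 9 were tested, and 3 passed as lower in HHR, while 45.5% of all tested miRNAs did, and 0 as higher, while 9.01% did, with a median log2 difference of -0.11, close to that of all tested miRNAs. miR-125a-5p, next to let-7e, was lower by -0.18 ± 0.049 on the log2 scale (SE, limma's adjusted p = 0.00969), and its passenger arm miR-125a-3p by -0.44 ± 0.12 (adjusted p = 0.0102). miR-125a-3p was dim, with mean log2 levels of 3.98 in HHR and 4.42 in NHR, and the part of array brightness was not tested for it. miR-99b* passed as well (adjusted p = 0.0356), but it was well above background on 0 HHR arrays and 1 NHR array, and no fold is given. miR-99b, on the other side of let-7e, had a difference of -0.046 (adjusted p = 0.310), and let-7e itself lay at -0.041. miR-99a, beside a let-7c copy, had 0.0055 (adjusted p = 0.887), and miR-100, beside a let-7a copy, had -0.11 (adjusted p = 0.0559).

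Outside the family, the miRNA whose deviations from the group means over the 16 arrays were most like those of let-7a, let-7d and let-7f was miR-1, a cardiac and skeletal muscle miRNA, with Pearson's r of 0.738, 0.802 and 0.849. For let-7i it was miR-181b (r = 0.797), for let-7b miR-342-3p (0.820), for let-7c miR-191* (0.837), for let-7e miR-140 (0.753) and for miR-98 miR-352 (0.736). For let-7b* it was miR-2985 (r = 0.968), and for let-7d* miR-99a* (0.740). All these values share array, scaling and brightness, and each is the highest of many correlations.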

How the data were processed

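Groups were taken from the sample titles, with 4 animals in each of 4 groups. The authors deposited the scanner output, in which spot intensity, per the file headers, came from Agilent Feature Extraction 10.7.3.1 with background subtraction and spatial detrending and no scaling between arrays. The deposited flags (detected, well above background, outlier) are other values of 0 or 1. A second deposited file gives log2 values by miRNA. Its column medians ran from 6.13 to 6.15, and across miRNAs each column followed the log2 median signal of its own array (Pearson's r of 0.999 on every array), so its direction is known. Its scaling and offset are unknown beyond limma, per the submitters' processing notes, so it served as an alternative only.

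Here, control and outlier spots were left out of the processed signal, spots were averaged per probe, and each array was scaled to an equal 75th percentile (over 258 probes that passed the well-above-background flag on each of the 16). A miRNA's level is the linear mean of its probes, raised to a floor of 1.88 (the lowest detected level per array, as a median) and turned to log2. Of 677 miRNAs, the 233 detected on at least 4 arrays were tested. limma 3.58.1 in R 4.3.3 fitted 1 mean per group to all 16 arrays, with Benjamini-Hochberg adjustment and a threshold of 0.05. On simulated data for the strain comparison of 233 miRNAs, 18 of 20 differences of 0.5 on the log2 scale, 9 of 20 of 0.15 and 2 of 193 unchanged miRNAs were called. The simulated noise was drawn independently for each miRNA and array, with no shared error of brightness or scaling. These rates therefore need not hold for the real arrays. The number of arrays limits the precision.

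All 10 members are named. The closest outside miRNA is the tested one with the highest correlation of deviations from group means. The members, the cluster partners and the marker lists were chosen with earlier results of these data known. Alternatives covered scaling, background, floor, filter, probe summary, moderation, array weights, slide, replicate number, brightness, the sex term and leaving out each array. Normexp used the median signal, and its offset of 50 was added after scaling. Sequences and positions are RefSeq's on GRCr8; the file headers name rn4 for the array grid, and no coordinate of that build is printed.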

Additional observations from a re-analysis of the deposited data

Results flagged for a closer look

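In 40 groups of 4 arrays (10 members in 4 groups), 2 held an array whose gap to the nearest other array took up most of the group's range, and chance gives about 1 in 20 such groups. NHR female 3 had a log2 level of 11.25 for let-7a, against 11.35 to 11.36 on the other NHR female arrays. The same array had a log2 level of 10.66 for let-7f, against 10.80 to 10.82 on the others. It is one of the 3 bright NHR arrays, and the part of brightness in its low values was not tested. Without it the let-7f strain difference was -0.082 on the log2 scale and passed limma's test (adjusted p = 0.0222), against -0.064 (adjusted p = 0.0893) with all arrays.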

How the results depend on the processing

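Scaling decided the sign of the guide differences, and each value here is HHR minus NHR on the log2 scale. For let-7a, b, c, d, e, f, i and miR-98 in that order, they were 0.16, 0.25, 0.25, 0.15, 0.24, 0.22, 0.15 and 0.22 with the percentile over all probes; 0.22, 0.30, 0.31, 0.21, 0.30, 0.28, 0.21 and 0.28 with no scaling; 0.057, 0.14, 0.14, 0.045, 0.13, 0.11, 0.046 and 0.11 with median centring; 0.14, 0.22, 0.23, 0.13, 0.22, 0.20, 0.13 and 0.20 with spike-in scaling; and 0.20, 0.26, 0.27, 0.19, 0.25, 0.25, 0.19 and 0.16 in the authors' table. let-7b, let-7c and let-7e had 0.027, 0.028 and 0.021 with the total gene signal (miR-98 0.0016), 0.052, 0.031 and 0.030 with quantile normalization, and 0.022, 0.024 and 0.019 with brightness as a covariate. On slide 2 alone let-7c had 0.00038 and let-7e 0.0078.

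Members called between strains, 5 in the report, numbered 9 with the percentile over all probes (8 higher), 3 with median centring (2 higher), 1 with quantile normalization, 2 with brightness or on slide 1 alone, and 0 with the total gene signal, no scaling, spike-in scaling, the authors' table or slide 2 alone. Leaving out each array gave 5 to 6. In females, 5 became 8 with the percentile over all probes (all higher), 8 with array weights, 3 with no filter on dim miRNAs, 1 on slide 1 alone or with brightness, and 0 with the total gene signal, quantile normalization, no scaling, median centring, spike-in scaling, the authors' table or slide 2 alone, and 4 to 7 without single arrays. In males, 3 became 4 with the percentile over all probes (all higher), 1 with no filter, array weights or brightness, and 0 with the other scalings, the authors' table, either slide alone or the arrays of males alone. Leaving out each array gave 0 to 3 in males: 1 without HHR female 3, HHR male 1, HHR male 4, NHR male 1 or NHR male 2, and 0 without HHR male 2 or NHR male 3. Sex and interaction gave 0 throughout. Fewer arrays enter the slide and single-sex fits; the cause of the other changes was not tested.

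Over all tested miRNAs, calls were 127 as reported (21 higher, 106 lower), 155 with the percentile over all probes (134 higher), 95 with quantile normalization (57 higher), 87 with median centring (59 higher), 70 with the total gene signal (34 higher), 48 with no scaling (38 higher), 29 with spike-in scaling (19 higher), 15 in the authors' table (13 higher), 74 with brightness, 37 on slide 1 and 47 on slide 2. With the replicate number as a block, 5 members were called between strains, 4 in females and 2 in males, and with the slide as a block the counts were likewise 5, 4 and 2. Numbers 1 and 2 lie on slide 1 and numbers 3 and 4 on slide 2 in every group, so number and slide overlap. Of 24 same-numbered pairs, 16 correlated above 0.1 (range -0.217 to 0.526), and 4 of 16 arrays correlated best with their own number, so pairing was not taken as shown. let-7f passed without NHR female 3 or with array weights, and miR-98 without HHR female 4, with array weights or with normexp. let-7d* lost its difference with a floor 4 times higher, where all its values sit at the floor. Depth of signal limits let-7d*.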

Other observations

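The array holds 7 further passenger arms of the family. let-7a-1* was detected on 1 array, and let-7c-1*, let-7e*, let-7f-1*, let-7f-2*, let-7i* and miR-98* were detected on 0 of 16 arrays. let-7g, a family member in other mammals, is not analysed here.

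The array also holds miR-3596a, miR-3596b, miR-3596c and miR-3596d, annotated on the strand opposite to let-7 hairpins. By RefSeq's sequences, their reverse complements are contained in let-7a, let-7d, let-7e and let-7f, in that order.
miR-3596a: aacuauacaaccuacuaccuca
All 4 were detected on 0 arrays, with a highest scaled signal on any array of 3.62, 2.05, 2.26 and 3.19, although the guides opposite them ranked among the brightest miRNAs.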
